A study of Sus scrofa with 5 samples.

Results

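Goblet-like cells of the piglet cecum were taken here as cell barcodes in which the transcripts of 3 mucus genes made up a large share of the RNA. A barcode with at least 200 detected genes was a member when MUC2, CLCA1 and SPINK4 together gave at least 5 unique molecular identifiers (UMIs, each 1 counted RNA molecule) and at least 20 UMIs per 10000 of its counts. By this rule 1291 of 72701 barcodes were members, or 1.776%. They numbered 476 at day 0 (d0), 717 at d1, 42 at d7, 35 at d14 and 21 at d21, so 92.4% of them came from the first pair of ages.

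The study followed the cecum of male Large White piglets that took only maternal milk from birth to 21 days, by droplet sequencing of RNA 3′ ends from single cells. Each age was 1 library, in which cells scraped from the cecal mucosa of 5 piglets had been mixed, with no cell sort and no treatment. The cells had been released with a chelating agent and then briefly with trypsin, and the matrices did not tie a cell to an animal. The libraries held 83394038 counts at d0, 80196009 at d1, 47921183 at d7, 91863866 at d14 and 69522315 at d21. Cells of 1 library are not replicates, so no test between ages was possible: levels are UMIs per 10000 counts summed over the members of an age, and their 95% intervals (exact Poisson, or exact Clopper-Pearson for shares) cover counting error only.

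Goblet cells are the secretory cells of the gut epithelium that make mucus. They arise in the crypt from progenitors in which Notch signalling is low and the transcription factor ATOH1 is active, and SPDEF and FOXA3 act later in their maturation. The gel-forming mucin MUC2 is folded and joined into dimers in the endoplasmic reticulum, heavily O-glycosylated in the Golgi, packed into granules and released into the lumen, where it builds the mucus layer that keeps microbes from the epithelium. Its partners include the protease CLCA1, the trefoil peptide TFF3, the Fc-gamma-binding protein FCGBP and the disulfide isomerase AGR2, which is needed for MUC2 folding. SPINK4 is a small protease inhibitor of the goblet granule.

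In the Sscrofa11.1 build used for the matrices, these protein-coding genes lie apart from each other. MUC2 is at chr2:689363-719542, CLCA1 at chr4:129621259-129655385 and SPINK4 at chr10:33246260-33255617. The markers outside the rule, TFF3 and AGR2, are at chr13:205641038-205644333 and chr9:86042070-86053893. REG4 is at chr4:101337295-101354550, FCGBP at chr6:48331753-48375099, SPDEF at chr7:30515925-30538095 and ATOH1 at chr8:125768232-125770619.

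The label was checked on genes that the rule did not use. Barcodes of at least 1000 UMIs were thinned to 1000, and those with fewer were left out of these shares. A TFF3 UMI was found in 82.8% of such members at d0, 94.0% at d1, 82.5% at d7, 87.5% at d14 and 95.2% at d21. The shares were 9.41%, 14.6%, 3.97%, 1.95% and 10.2% of barcodes with T and NK cell markers, which should lack it. For AGR2 the shares in members were 74.5%, 69.2%, 85.0%, 96.9% and 95.2%, against at most 2.11% in T and NK cells. Both markers were thus far above their background at every age. An epithelial rule (EPCAM, KRT8, KRT18, KRT19 and CDH1) was met by 1094 of the members, between 83.0% and 95.2% at each age. Members that also met the enteroendocrine rule numbered 4 at d0, 7 at d1, 2 at d7, 2 at d14 and 1 at d21, and 0 members met the tuft rule.

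RNA of other cell types, damage and single large barcodes differed between the ages. At least 3 UMIs of a non-epithelial marker list were found in 1.89% of members at d0, 17.6% at d1, 40.5% at d7, 37.1% at d14 and 85.7% at d21, and in 1.70%, 16.6%, 41.4%, 45.8% and 82.3% of the other epithelial cells. The summed level of the T and NK list in members was 0.822, 0.785, 1.81, 1.90 and 33.5 per 10000, with CCL5, a chemokine gene, as its most abundant gene at every age (833 counts at d21). Of that list only CD3D had no count at d21, and it had none at d0 or d1 either. At d1 the stromal list led instead, with 961 counts of the collagen gene COL3A1 and at least 3 stromal UMIs in 10.9% of members. The median share of mitochondrially encoded counts in members was 12.0%, 8.72%, 6.99%, 0.969% and 3.05%. The member with most UMIs held 2.44% of all member counts at d0, 0.810% at d1, 10.1% at d7, 33.5% at d14 and 16.4% at d21, so single barcodes weighed heavily on the 3 later ages. The barcode sequences of 22 members also occurred in another library, but none was a member in both.

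Goblet-like cells took a larger share of the library at d0 and d1 than later. The share was 3.13% (95% interval 2.86 to 3.42) at d0 and 5.07% (4.71 to 5.44) at d1, and was 0.409% (0.295 to 0.552) at d7, 0.216% (0.151 to 0.301) at d14 and 0.124% (0.0770 to 0.190) at d21. Among barcodes with under 20% mitochondrial counts the order of d0 and d1 turned, at 5.50% and 5.28%. The paper describes Cell Ranger run with a forced number of 5000 cells, and each matrix held more barcodes than that. Among the 5000 barcodes with most UMIs the share was 4.36%, 9.68%, 0.700%, 0.300% and 0.240% from d0 to d21. At d21 the share was 0.367% when TFF3 and AGR2 took the place of the rule genes, above the 0.352% at d14, and 0.0178% without members with non-epithelial markers. As a share of epithelial cells (members and the other barcodes that met the epithelial rule) the order was different, at 6.18% (5.65 to 6.74) for d0, 15.5% (14.5 to 16.6) for d1, 7.33% (5.33 to 9.78) for d7, 11.9% (8.41 to 16.1) for d14 and 1.99% (1.23 to 3.02) for d21. The d0 and d7 intervals overlapped on this scale, as did those of d7 and d14 and of d1 and d14, while d21 stood below the rest under the mucus rule. Epithelial barcodes numbered 7705 at d0, 4625 at d1, 573 at d7, 295 at d14 and 1058 at d21. The lower shares of the library at d7 and d14 thus went with fewer epithelial barcodes. At d21 the share of epithelial cells was lower as well, but only the mucus rule was used on this scale. TFF3 and AGR2 in its place picked 389 barcodes at d0 and 62 at d21, beside the 7705 and 1058 epithelial barcodes. Non-epithelial markers were found in 82.3% of the other epithelial cells at d21. How many of each cell type were released from the tissue was not measured.

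**Figure D1:**
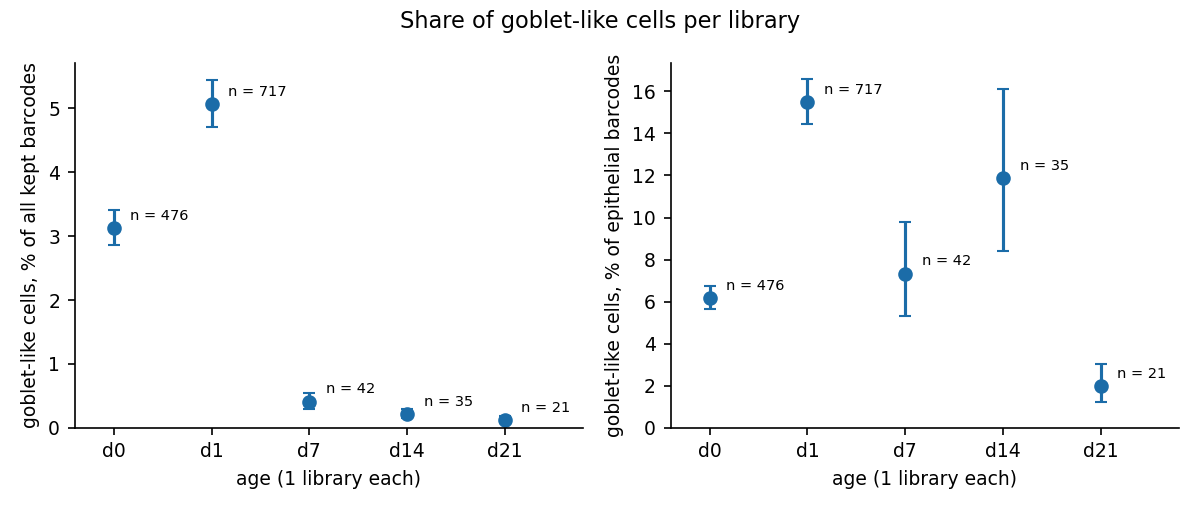
Share of goblet-like cells at each age, in percent of all barcodes and in percent of epithelial cells; points are 1 library of 5 mixed piglets each, and bars are exact 95% Clopper-Pearson intervals for counting error. The share of all barcodes was 5.07% at d1 and 0.124% at d21 (among barcodes with under 20% mitochondrial counts d0 stood above d1), while the share of epithelial cells was 15.5% at d1 and 11.9% at d14.

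The rule genes are described here with no test, since their sum chose the members. Members held 90.9% of the MUC2 counts of the library at d0, 90.9% at d1, 91.0% at d7, 84.8% at d14 and 88.5% at d21. Of SPINK4 counts they held less, between 53.9% at d0 and 77.2% at d1. The median member had 138, 122, 87.3, 80.0 and 102 UMIs of the 3 rule genes per 10000. Just inside the threshold, between 20 and 30 per 10000, were 53, 49, 7, 3 and 1 members, and just outside it, between 15 and 20 per 10000, were 68, 47, 3, 4 and 2 barcodes. All 3 genes were detected in 79.6% of members at d0, 87.9% at d1, 71.4% at d7, 48.6% at d14 and 76.2% at d21.

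The mix of the rule genes was not the same at each age. CLCA1 gave 36.5% of the rule UMIs at d0 and 53.6% at d1, and then 23.3%, 14.6% and 10.9% at d7, d14 and d21. SPINK4 gave 37.8%, 22.8%, 48.6%, 58.2% and 60.0%, the largest share of the 3 genes at every age but d1. The share of MUC2 stayed between 23.6% and 29.1%.

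Among mucus proteins outside the rule, TFF3, which promotes epithelial repair, was abundant at every age. Its level in members was 251 per 10000 at d0, 169 at d1, 81.5 at d7, 104 at d14 and 71.4 at d21, and in the other epithelial cells it was 0.654, 1.71, 1.84, 2.01 and 1.94. The isomerase AGR2 stood at 59.7, 17.2, 106, 102 and 191 per 10000 in members, lowest at d1 and highest at d21. FCGBP, a mucus protein that binds to MUC2, varied less as a summed level, at 10.3, 9.29, 6.51, 5.61 and 5.78. In the median member FCGBP was at 9.94, 9.07, 1.04, 0 and 0.929, and 1 member held 44.7% of its counts at d14. REG4, a lectin secreted by enteroendocrine and goblet cells, was at 24.3, 8.31, 79.6, 49.6 and 82.6, and RETNLB, a bactericidal goblet cell protein, at 8.60, 4.08, 10.2, 3.71 and 13.6. Each of these summed levels was higher in members than in other epithelial cells at all 5 ages. In the test described below, 308 of 11704 genes were called and higher in members in all 5 libraries. The gel-forming mucin genes MUC5AC, MUC5B and MUC6, known from other organs, were near 0, and ZG16, a mucus lectin, gave 1 UMI in all members.

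**Figure D2:**
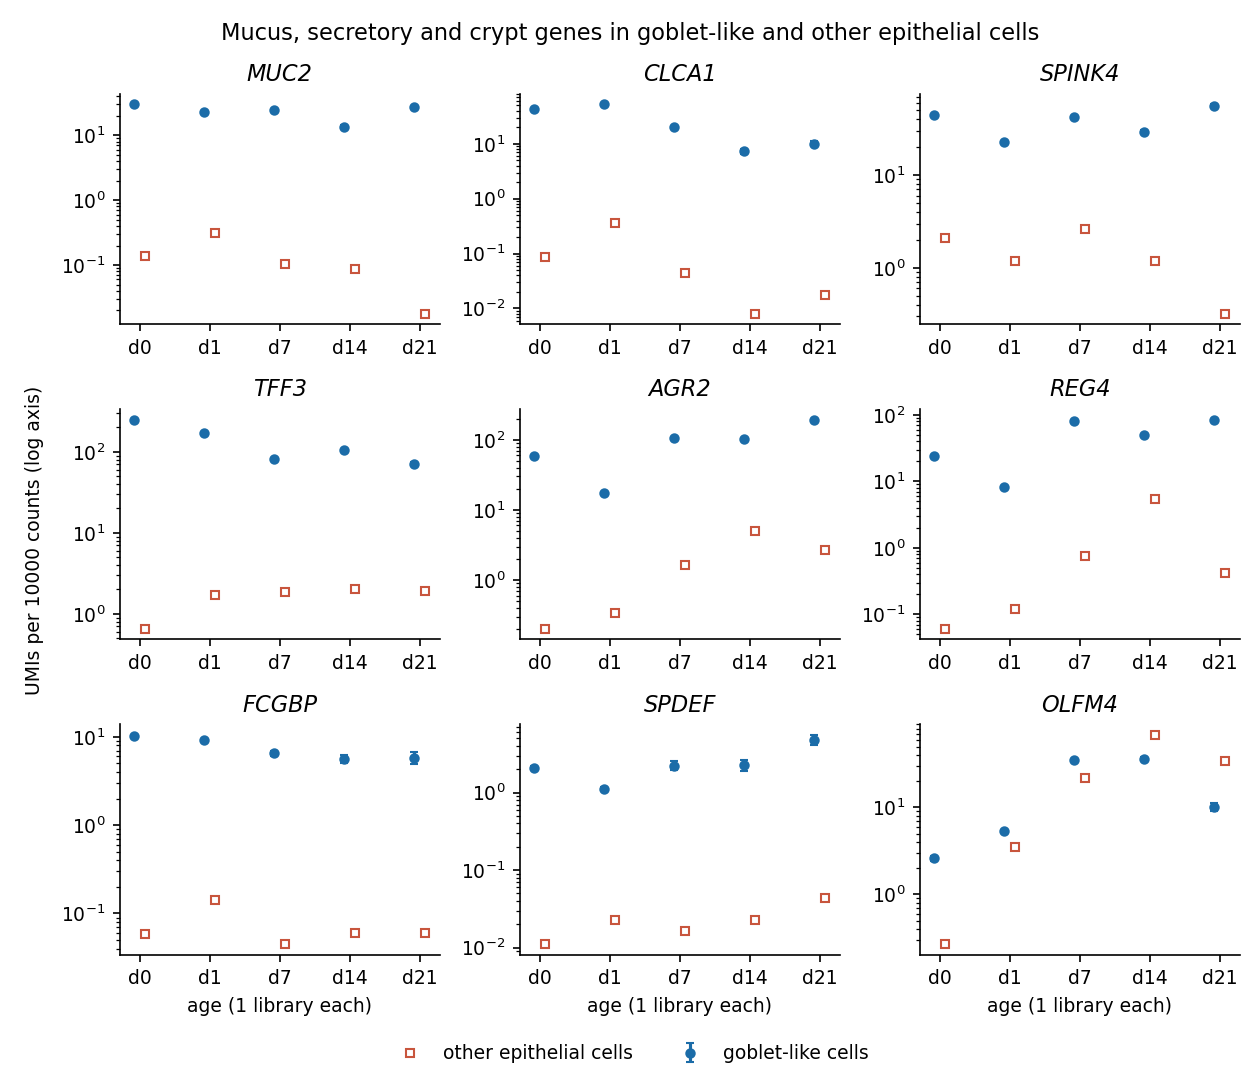
Levels of 9 genes in members (filled points) and other epithelial cells (open squares), in UMIs per 10000 counts on a log axis, for each age; bars on the filled points are exact 95% Poisson intervals for counting error. TFF3 was highest at d0 with 251, whereas AGR2 was highest at d21 with 191 and lowest at d1 with 17.2.

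Members were compared with the other epithelial cells (non-member barcodes that met the epithelial rule, enteroendocrine and tuft cells included) on counts summed per library, with the library as a block. The test was edgeR's quasi-likelihood test with Benjamini-Hochberg adjustment, and the rule genes of both classes were left out of the counts, so levels in the fit differ slightly from those above. Genes that accompany the rule genes within a barcode were bound to come out higher, and the 5 libraries, which differ in age, stood in for replicates. Of 11704 genes tested, 346 (2.96%) were higher in members and 276 (2.36%) lower, with a median log2 difference of -0.06 over all genes. Without the library as a block, 80 genes were higher and 0 lower, and 1 library could move the counts: 192 and 54 without d0, 150 and 42 without d1, 208 and 138 without d7, 476 lower without d14 and 146 lower without d21.

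Of the lists tested, secreted mucus genes had the largest median difference. Of 7 tested in this list (the rule genes not among them) 4 were higher and 0 lower, with a median log2 difference of 5.94. FCGBP was higher by 6.67 ± 0.22 (SE, adjusted p = 1.26e-06), REG4 by 6.49 ± 0.74 (adjusted p = 0.0014), TFF3 by 6.18 ± 0.49 (adjusted p = 1.38e-04) and RETNLB by 5.94 ± 0.41 (adjusted p = 5.13e-05), each in 5 of 5 libraries. WFDC2, a secreted protease inhibitor with antibacterial action, had a difference of 2.73 ± 0.73 and did not pass (adjusted p = 0.063). Of the membrane-bound mucins, which stay on the cell surface, 0 of 5 were higher, and MUC12 was lower by 1.00 on the log2 scale. The MUC12 call was lost without the library block, without d0, without d1 and under 20% mitochondrial counts.

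**Figure D3:**
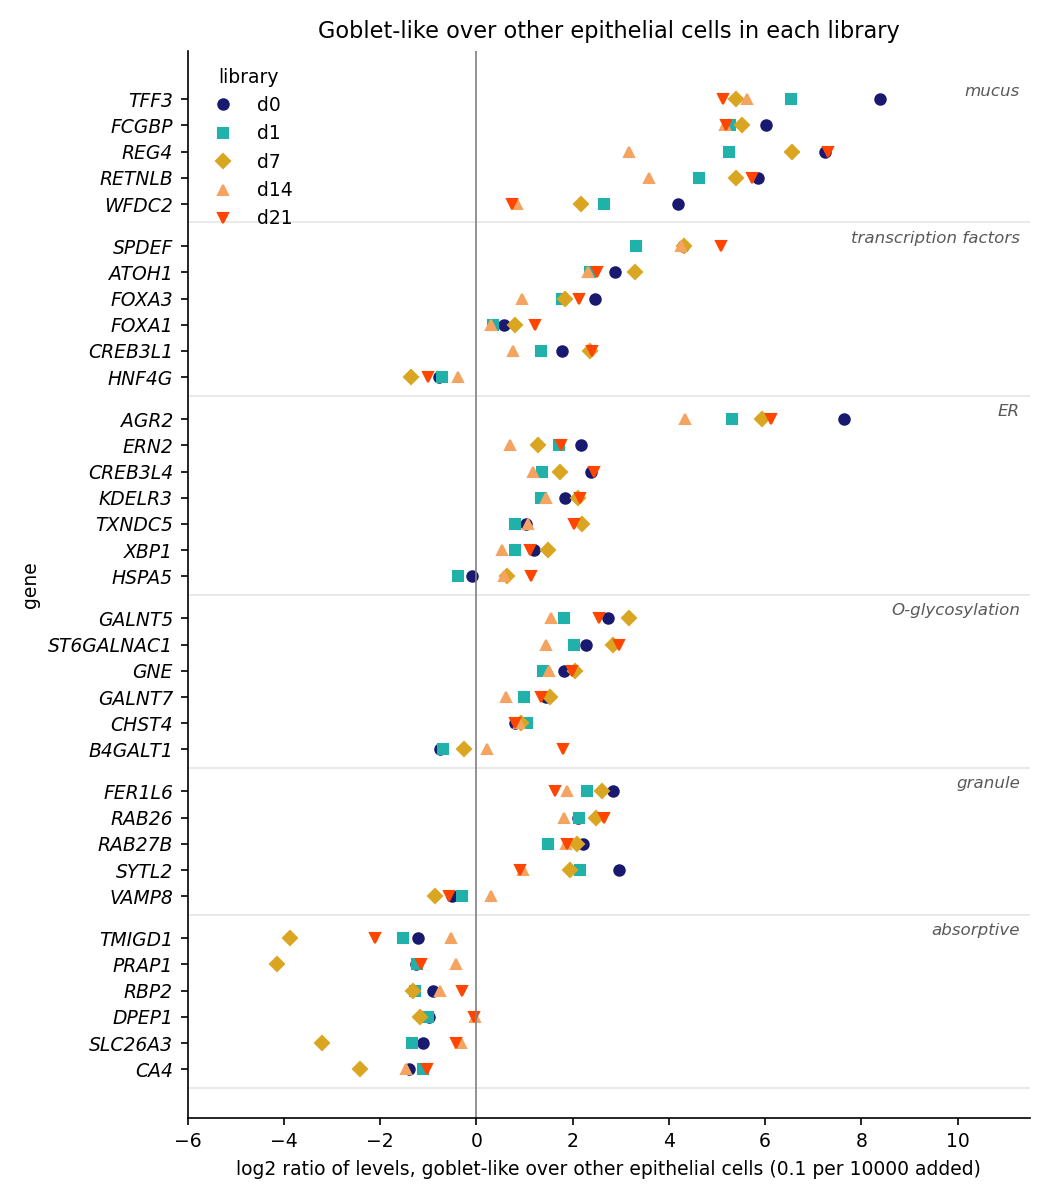
Log2 ratio of the level in members over that in other epithelial cells for genes grouped by role, with 1 point for each of the 5 ages and 0.1 per 10000 added to both levels, so ratios differ from the fitted differences. The plotted mucus genes, SPDEF and AGR2 lay right of 0 at every age, TMIGD1 lay left of it at every age, and HSPA5 lay on both sides.

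Of 15 goblet transcription factors tested 6 were higher in members, 1 was lower and 8 were not called, with a list median of 0.56. SPDEF, which drives goblet maturation, was at 2.08 per 10000 at d0, 1.12 at d1, 2.23 at d7, 2.24 at d14 and 4.78 at d21, against at most 0.0441 in the other epithelial cells. It was higher by 6.61 ± 0.27 on the log2 scale (adjusted p = 3.35e-06). ATOH1, the factor that starts the secretory fate, was at 0.663, 0.447, 1.37, 0.671 and 0.700 and was higher by 5.19 ± 0.48 (adjusted p = 3.40e-04). FOXA3 was higher by 2.83 ± 0.36 (adjusted p = 0.00283), GFI1, a repressor that favours goblet over enteroendocrine fate, by 3.06 ± 0.52 (adjusted p = 0.0117), and CREB3L1, a factor of the secretory stress response, by 2.00 ± 0.24 (adjusted p = 0.00176). HNF4G, an enterocyte factor, was lower by 1.11 on the log2 scale (adjusted p = 0.0103). In the Notch list, the ligand gene DLL4 and the target gene HEY1 were 2 of 11 that passed, both higher.

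Of 30 genes for protein folding in the endoplasmic reticulum 12 were higher and 0 lower, with a median of 0.57. Their summed level was 128, 79.4, 219, 216 and 337 per 10000 in members and 49.3, 54.6, 59.5, 94.5 and 82.2 in the other epithelial cells, so that members were above at every age. AGR2 carried much of the sum: without it the list was at 67.9, 62.2, 112, 115 and 146 in members and 49.1, 54.2, 57.8, 89.5 and 79.5 in the others. AGR2 itself was higher by 5.98 ± 0.48 (adjusted p = 1.40e-04). ERN2, the stress sensor special to mucus cells, was higher by 3.16 ± 0.53 (adjusted p = 0.0106), the retrieval receptor KDELR3 by 2.24 ± 0.14 (adjusted p = 3.38e-05) and XBP1, a factor that enlarges the secretory machinery, by 1.02 ± 0.14 (adjusted p = 0.00347). The general chaperone HSPA5 had a difference of 0.29 ± 0.22 and did not pass (adjusted p = 0.494), with a higher level in 3 libraries and a lower one in the other two.

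Enzymes that build O-glycans were partly higher, with 9 of 29 higher, 0 lower and a median of 0.41. GALNT5, which adds the first sugar, was at 0.608, 0.354, 1.02, 0.288 and 0.609 per 10000 and was higher by 4.72 ± 0.43 (adjusted p = 3.06e-04). ST6GALNAC1, which caps the glycan with sialic acid, was higher by 4.63 ± 0.30 (adjusted p = 3.83e-05). GNE, which makes the sialic acid precursor, was higher by 2.03 ± 0.13 (adjusted p = 3.34e-05). Of the 9 calls, 5 were lost without the library block. The initiating transferase GALNT7 and the sulfotransferase CHST4 were higher by 1.25 and 1.23.

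In the list of granule traffic and release, 9 of 21 genes were higher and 1 lower, with a median of 1.04. The small GTPases RAB27B, RAB3D and RAB26, which guide secretory granules, were higher by 2.49 ± 0.15, 2.09 ± 0.32 and 4.71 ± 0.29 (adjusted p = 2.67e-05, 0.00731 and 2.84e-05). FER1L6, a gene of the ferlin family, was higher by 6.0 ± 0.42 (adjusted p = 5.76e-05) and KLK1, a secreted serine protease, by 5.80 ± 0.58 (adjusted p = 6.15e-04). NLRP6, an inflammasome sensor known for a role in mucus release, was the gene that was lower, by 1.40 on the log2 scale (adjusted p = 0.0287, lower in 4 of 5 libraries), and its call was lost under several alternatives.

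Of the antimicrobial and immune genes only 2 of 21 were higher and 1 was lower. ITLN2, an intelectin that binds microbial sugars, was higher by 4.85 ± 0.50 (adjusted p = 7.66e-04). PLA2G2A, a bactericidal phospholipase, was higher by 7.29 ± 0.51 (adjusted p = 1.34e-04). Its level was 0.573 at d0, 0.307 at d1, 0 at d7, 3.13 at d14 and 16.2 per 10000 at d21, from UMIs in 9, 5, 0, 7 and 7 members, so it came from few cells. The lower gene, TNFSF10, encodes a death ligand, and its call was also lost under several alternatives. Without the library block the calls of REG4, FOXA3, GFI1, CREB3L1, XBP1, KDELR3, CHST4, DLL4, RAB3D and PLA2G2A were lost, with 9 of the 12 endoplasmic reticulum genes and 4 of the 6 transcription factors among those lost. The calls of ERN2 and GFI1 were lost without d1, that of DLL4 without d0, d1 or d21, and that of HEY1 without d0, d7 or d21.

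Part of the absorptive genes were lower in members than in the other epithelial cells, a pool that held the enterocytes. In the enterocyte list 0 of 18 genes were higher and 8 were lower (AMN, ANPEP, APOB, DPEP1, PRAP1, RBP2, SI and TMIGD1), with a median of -1.13, and in the list of ion and water transport 4 of 15 were lower (BEST4, CA4, SLC26A3 and SLC9A3) and 2 higher (CA8 and SLC12A8). The sugar-digesting enzyme gene SI fell by 1.63 ± 0.20 relative to the other epithelial cells (adjusted p = 0.0036). TMIGD1 was at 6.94, 1.85, 0.190, 0.0319 and 0 per 10000 in members and 16.2, 5.54, 4.13, 0.0888 and 0.331 in the others, lower at all 5 ages. The chloride and bicarbonate exchanger SLC26A3 had levels of 2.42, 1.10, 0.0541, 0.0160 and 0.0304 against 5.34, 2.95, 1.32, 0.0452 and 0.0751. BEST4, the calcium-activated channel, and OTOP2, a proton channel, mark a distinct absorptive cell and were lower by 2.27 and 2.81 on the log2 scale. These lower calls were lost without the library block. Many were also lost under other alternatives: PRAP1 under 8 in all, OTOP2 under 7, ANPEP and BEST4 under 6 each (BEST4 without d0, d7 or d21), TMIGD1 and SLC26A3 without d1 or d21, and SI with DESeq2, whereas CA4 was lost under no other.

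Some absorptive message was nevertheless read in members. FABP1, the enterocyte fatty acid-binding protein, gave a UMI in 41.5% of thinned members at d0, 31.2% at d1, 22.5% at d7, 18.8% at d14 and 4.76% at d21. In T and NK cells, which should lack it, the shares were 19.8%, 8.23%, 14.2%, 0.263% and 1.58%, and in the other epithelial cells 70.4%, 41.0%, 62.1%, 14.6% and 11.6%. At d7 and d21 the intervals of the share in members (10.8% to 38.5% and 0.120% to 23.8%, from 9 of 40 and 1 of 21 members) included the T and NK share, and at d0, d1 and d14 they lay above it.

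Outside the lists, among genes higher in all 5 libraries, the largest difference was that of LOC110255228, which the annotation gives only by this identifier. Over all 5 libraries its pooled level was 487-fold (95% counting interval 372 to 649) that of the other epithelial cells. The gene LOC100736733 was at 12.0, 7.03, 9.23, 10.6 and 43.0 per 10000 and was higher by 6.58 on the log2 scale. Others among the 10 largest of the genes higher in all 5 libraries were REP15, a RAB15-binding protein gene (7.01), BPIFB2 (6.81), the potassium channel genes KCNMA1 (6.76) and KCNE5 (6.55), and the sialyltransferase gene ST6GAL2 (6.65). Besides the genes above, the lower end held the carbonic anhydrase gene CA7 (-2.67) and the interferon-induced OASL (-2.26), whose calls were lost under 5 and 3 of the alternatives.

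No crypt or cell cycle gene was called. In the crypt list 0 of 12 genes were called, and in the cell cycle list 0 of 20, where the median was 0.64. The proliferation gene MKI67 was at 0.124, 0.159, 0.966, 0.783 and 0.456 per 10000 in members and 0.0117, 0.0766, 0.473, 0.657 and 0.537 in the others. Of the enteroendocrine markers 1 of 7 was lower, the granin gene CHGB, by 2.18 on the log2 scale (adjusted p = 0.0419, lower in 4 of 5 libraries), a call lost under 5 of the alternatives. The T and NK list had 0 of 5 genes called, the stromal list 0 of 6 and the mitochondrially encoded list 0 of 13. Of the heat shock and immediate early genes 1 of 22, HSPA4L, was higher, a call lost without the library block.

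The enteroendocrine cells, which make hormones from the same secretory progenitors, were compared in the 4 libraries with at least 20 such cells, which leaves out d14. Of 7929 genes tested, 353 (4.45%) were higher in goblet-like cells and 405 (5.11%) lower, but 107 and 215 without d0, 123 and 166 without d1, and 214 higher without d21. Without the library block the counts were 106 and 180. Without cells with non-epithelial markers, which left d0 and d1 only, they were 972 and 1095. All 5 mucus genes tested were higher, with a median log2 difference of 6.14, and 18 of 30 endoplasmic reticulum genes were higher and 0 lower, of which 9 lost the call without the library block. ATOH1 was higher by 5.15 ± 0.47 (adjusted p = 1.08e-04), while GFI1 had a difference of 1.23 ± 0.71 and did not pass (adjusted p = 0.315). SPDEF had 3 counts in the enteroendocrine cells, and its pooled level was 108-fold (36.9 to 524) higher in members. Their lower genes were led by TPH1, the serotonin-making enzyme (-8.09), CADPS, a gene of dense-core vesicle release (-8.06), and LMX1A, an enterochromaffin cell factor (-7.88). Of the granule genes, 4 of 14 were higher, RAB27B and FER1L6 among them. Of 17 enterocyte genes, 1 was higher than in enteroendocrine cells (KRT20), 1 lower (SMIM24) and 15 were not called. Both calls were lost without the library block.

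Tuft cells, the chemosensory epithelial cells, gave 3057 tested genes in the same 4 libraries, of which 261 (8.54%) were higher in goblet-like cells and 299 (9.78%) lower, with 169 lower without d1 and 425 higher without d21. Without the library block 165 were higher. AGR2 was higher by 9.49 ± 0.46 (adjusted p = 3.63e-07) and REG4 by 9.28 ± 0.70 (adjusted p = 6.09e-06). SPDEF had 0 counts in tuft cells and was at least 17.9-fold higher in members (floor of 3 counts over the group). RAB27B, higher than in enteroendocrine cells, was lower than in tuft cells by 1.12 on the log2 scale (adjusted p = 0.0424), a call that was lost under 8 of the alternatives, DESeq2 among them. The largest lower genes included RGS21, RGS13 and ALOX5AP, a leukotriene pathway gene (-9.07, -8.91 and -8.34). Of 12 enterocyte genes, 5 were higher than in tuft cells (APOA1, FABP1, KRT20, PRAP1 and TMIGD1), 1 was lower (VIL1) and 6 were not called. The calls of APOA1 and FABP1 were lost without the library block.

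Members of 1 library differed widely among themselves. At d0 the TFF3 level of a single member ran from 0 through a median of 166 to 1679 per 10000. REG4 was at 0 in 245 of 476 members at d0 and in 366 of 717 at d1, and SPDEF at 0 in 176, 262, 13, 14 and 3 members from d0 to d21. In shallow barcodes a 0 is often a missed molecule.

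Splitting the d0 and d1 members into tertiles by their rule level, a split added after the data were seen, described this range. The split used the genes that chose the members, so genes that accompany them were bound to rise over the tertiles. It is a description and no check of the label. TFF3 was at 74.9, 305 and 747 per 10000 from the lowest to the highest tertile at d0, and at 65.0, 190 and 637 at d1. AGR2 was at 24.3, 76.1 and 150 at d0 and 6.87, 23.1 and 54.8 at d1, and SPDEF at 0.816, 2.54 and 5.51 and then 0.587, 1.34 and 3.32. The endoplasmic reticulum list was at 86.3, 150 and 227 at d0 and 65.9, 90.0 and 122 at d1, but AGR2 carried most of this range: without it the list was at 62.0, 74.0 and 77.0 at d0 and 59.0, 66.9 and 66.9 at d1. The enterocyte list ran the other way at d0, with 96.3, 53.3 and 27.6, but was nearly level at d1, with 34.5, 32.2 and 30.6. OLFM4, a crypt stem and progenitor gene, was at 4.21, 0.945 and 0.0623 at d0 and at 5.59, 6.75 and 0.517 at d1, where only the highest tertile stood low. The median UMI count also fell over the tertiles, 7090, 5607 and 3686 at d0 and 20968, 9532 and 4527 at d1, as did the share with non-epithelial markers at d1 (30.1%, 16.3% and 6.28%). Their part in the trends was not tested.

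**Figure D4:**
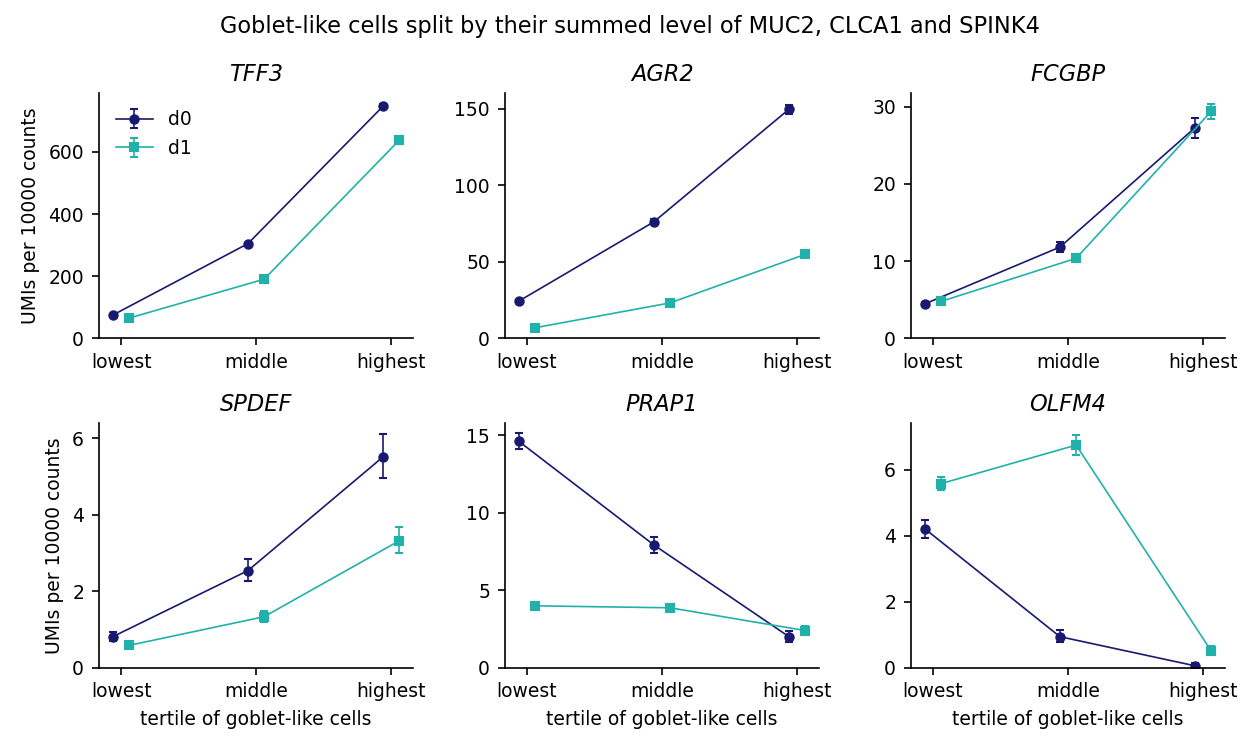
Levels in the lowest, middle and highest tertile of members by the summed level of the rule genes, at d0 and d1, in UMIs per 10000 counts, for TFF3, AGR2, FCGBP, SPDEF, the enterocyte gene PRAP1 and OLFM4; bars are exact 95% Poisson intervals for counting error. TFF3 at d0 was 74.9, 305 and 747 from the lowest to the highest tertile, while PRAP1 was 14.6, 7.92 and 2.01.

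Applying the same thresholds to TFF3 and AGR2 in place of the mucus rule gave 389, 685, 55, 57 and 62 barcodes, of which 356, 620, 32, 35 and 20 were also members. These made up 74.8%, 86.5%, 76.2%, 100% and 95.2% of the members. The barcodes picked by TFF3 and AGR2 that were not members numbered 33, 65, 23, 22 and 42. At d21, where 42 of 62 such barcodes fell outside the mucus rule, members held 25.8% of the TFF3 counts of the library, against 93.9% at d0.

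From d0 to d1 few genes in goblet-like cells passed a 2-fold difference (log2 ratio past 1 after adding 0.1 per 10000). Of 1407 genes at a level of at least 1 at either age, 19 (1.35%) were higher at d1 and 49 (3.48%) lower, with a median log2 ratio of -0.01. GPX2, a gut glutathione peroxidase, went from 0.240 to 2.53 per 10000 (2.96 on the log2 scale), the protease inhibitor SLPI from 0.625 to 3.56 (2.34), the mucosal scavenger receptor DMBT1 from 3.67 to 10.9 (1.55) and elafin, PI3, from 6.12 to 13.6 (1.13). The same genes were also higher at d1 in the other epithelial cells, at 0.272 and 2.89 for GPX2, 1.01 and 4.68 for SLPI, 7.87 and 20.2 for DMBT1 and 0.139 and 2.50 for PI3. Of the 5 mucus genes outside the rule 0 were past the fold upward and 3 downward (REG4, RETNLB and WFDC2), and of 17 endoplasmic reticulum genes 2 were past it downward, AGR2 among them with a ratio of -1.79. REG4 had a ratio of -1.54 and RETNLB -1.06. Of 13 enterocyte genes 8 were lower at d1 and 0 higher, and the bile acid-binding FABP6 was at 3.71 and then 0.166. The values of the hormone genes PYY and GCG rested on single members, which held 60.8% and 86.8% of the PYY counts and 82.7% and 92.5% of the GCG counts at d0 and d1, and without members that met the enteroendocrine rule the PYY ratio of -2.35 turned to 0.40.

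From d0 to d21 many more genes moved, over 21 members at the later age. Of 1625 genes, 206 (12.7%) were at least 2-fold higher at d21 and 255 (15.7%) lower, with a median of 0.13. These counts depended on the setting: 95 and 123 with 1 per 10000 added, and 414 higher with members weighted alike. They were 527 and 563 without members with non-epithelial markers. In the endoplasmic reticulum list 15 of 25 were higher and 0 lower, with a median of 1.07. AGR2 had a log2 ratio of 1.68, the SDF2L1 chaperone gene 2.34 and HSPA5 1.99, from 5.01 to 20.2 per 10000. In the other epithelial cells HSPA5 was at 5.35 and 9.07. Non-epithelial markers were found in 85.7% of members at d21, and without the members that carried them, which leaves 3 at d21, 11 of the 15 genes were still past the fold, with AGR2 at 2.72 and SDF2L1 at 4.00, whereas HSPA5 was at 0.023. Of all ratios followed from d0 to d21, 94 moved and 20 changed sign in that setting, and 33 did neither.

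Of the 5 mucus genes at level that were outside the rule, 1 was higher at d21 (REG4, 1.76) and 1 lower (TFF3, -1.81), and FCGBP was at -0.82. Of the rule genes, whose sum chose the members, CLCA1 had a ratio of -2.07 and MUC2 of -0.15. In the median member MUC2 was at 34.7 per 10000 at d0 and 8.33 at d21, and FCGBP at 9.94 and 0.929. A single member held 32.8% of the MUC2 counts at d21. SPDEF was higher with a ratio of 1.16. LOC100517891 was at 2.50, 3.51, 93.5, 52.5 and 109 per 10000 from d0 to d21, with UMIs in all 21 members at d21. In the other epithelial cells it was at 0.0287, 0.10, 0.817, 2.39 and 1.74, so it was higher in members at each age as well as high from d7 on.

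Enterocyte genes were lower in members at d21, with a summed list level of 8.82 per 10000 against 72.6 at d0. Of 13 genes of that list 12 were lower and 0 higher, with a median of -4.88. TMIGD1 had no count at d21 and was at least 76.0-fold lower than at d0 (floor of 3 counts in the d21 members), and APOA1, an apolipoprotein gene, went from 7.05 to 0.0304. Both were lower at d21 in the other epithelial cells too, with APOA1 at 0.0810 there.

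**Figure D5:**
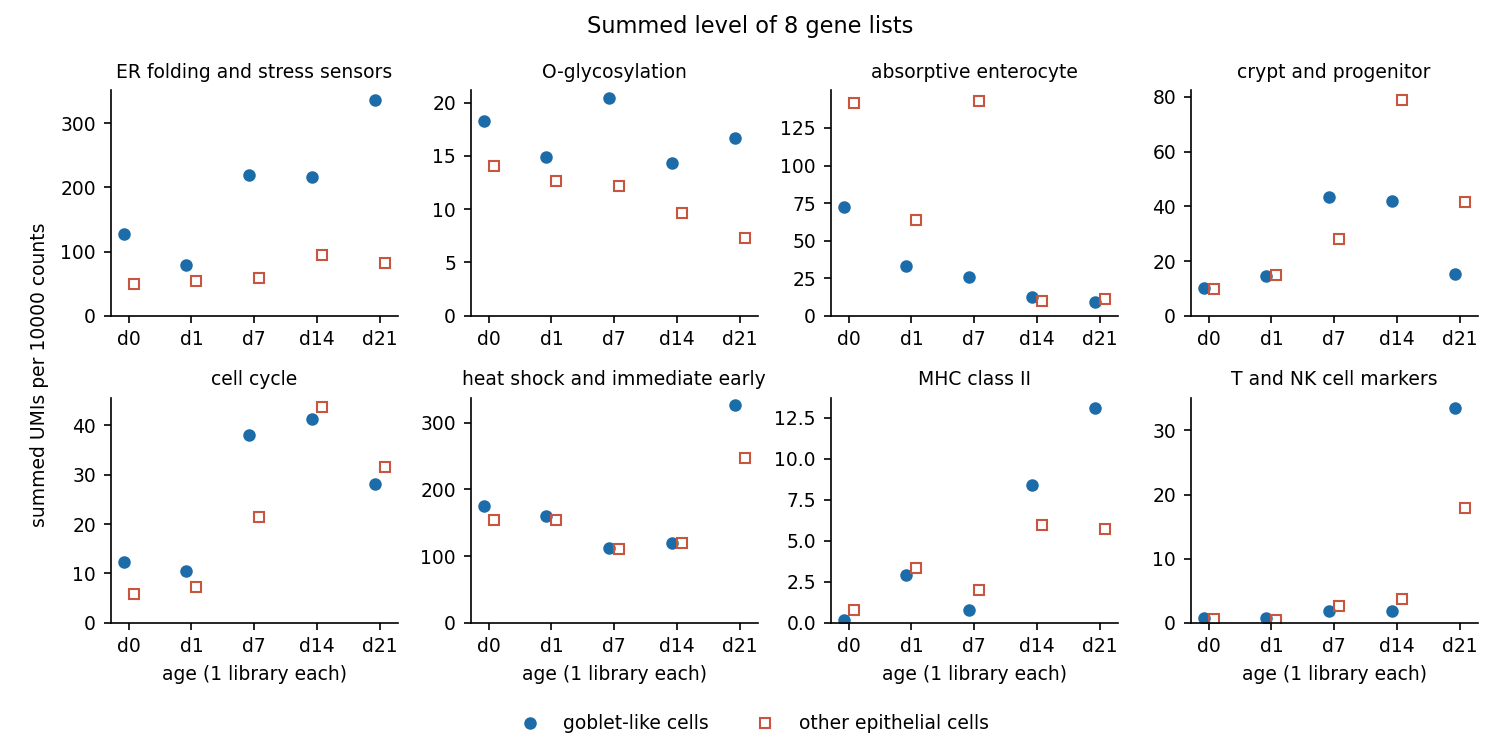
Summed level of gene lists in members and in other epithelial cells at each age, for 8 lists, in UMIs per 10000 counts, with filled points for members and open squares for the others. The endoplasmic reticulum list was higher in members at all 5 ages, with 337 against 82.2 at d21 (146 against 79.5 without AGR2), and the enterocyte list in members went from 72.6 at d0 to 8.82 at d21.

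Stress genes and genes of other cell types also stood higher at d21. In the heat shock and immediate early list 11 of 21 were higher and 2 lower, with a median of 1.48. Without members with non-epithelial markers, which leaves 3 members at d21, 6 of those 11 (BAG3, DNAJB1, DNAJB4, HBEGF, HSPA8 and HSPH1) turned in direction. HSPA6, a stress-induced chaperone gene, was at 0.575 and 21.7 per 10000 in members and 1.07 and 14.7 in the other epithelial cells. The interferon-induced IFI6 was at 0.777 and 26.4 in members and 0.587 and 21.3 in the others. All 4 MHC class II genes at level were higher, with a median of 4.06, but without members with non-epithelial markers 3 of them turned in direction (CD74 to -0.53, SLA-DRA to -0.24 and SLA-DQA1 to -0.21). In addition, 1 member held 68.6% of the CD74 counts at d21, and the T and NK list was at 33.5 per 10000 at that age. GNLY, a cytotoxic granule gene, had 183 of its 186 counts in 1 member. The hormone genes NTS and PYY had all of their 229 and 468 counts at d21 in 1 member, which met the enteroendocrine rule. Without members that met that rule the ratio of NTS was -0.41 and that of PYY -0.59.

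OLFM4 and the cell cycle list stood highest at d7 and d14. OLFM4 was at 2.59 per 10000 at d0, 5.31 at d1, 35.0 at d7, 36.5 at d14 and 10.1 at d21, and in the other epithelial cells at 0.268, 3.48, 21.6, 68.8 and 34.1. At d0 its UMIs were in 25 of 476 members, mostly of the lowest tertile by level. At d7, d14 and d21 a single member held 32.8%, 36.2% and 43.4% of the OLFM4 counts. Another gene of the crypt list, SOX4, a progenitor factor, went another way in members, at 5.66, 7.29, 4.51, 2.76 and 2.22. The cell cycle list was at 12.4, 10.5, 38.0, 41.4 and 28.2 per 10000 in members and 5.74, 7.26, 21.5, 43.7 and 31.6 in the others. Members were thus above the other cells at d0, d1 and d7 and not at d14 or d21. Non-epithelial markers were found in 40.5%, 37.1% and 85.7% of members at d7, d14 and d21, and their part in these levels was not tested. The 4 cell cycle genes past the fold upward from d0 to d21 (STMN1, CENPF, TOP2A and UBE2C) had ratios of -2.86, -2.67, -2.35 and -2.24 without the members that carried such markers, which leaves 3 members at d21. The d14 values rest on 35 members, of which 1 held 33.5% of the counts.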

How the data were processed

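RNA from 5 libraries, 1 per age, was measured. The authors made the deposited counts (UMIs per gene and barcode) with Cell Ranger 3.1.0, which aligns with STAR, on susScr11 (Sscrofa11.1); no normalization had been applied. Members, the rule and the gene lists were chosen with earlier results of these data known. Barcodes with at least 200 genes were kept and no doublet caller was run, so 2 cells in 1 droplet could be members. Tests used edgeR 4.0.16 in R 4.3.3 on counts summed per library and class (at least 20 cells), with the library as block and an adjusted p of 0.05; DESeq2 1.42.0 was an alternative. Between ages only log2 ratios of levels were given, with 0.1 per 10000 added. The genes named were members of the gene lists, the 10 with the largest change in each direction (called in the same direction in every library against other epithelial cells; at a level of at least 2 per 10000 from d0 to d21), and 5 each way against enteroendocrine and tuft cells; the comparison of d1 with d0 was added after seeing the data. Of 341 listed symbols 327 were in the matrices. The tests were first tried on simulated counts with known changes. Those counts had 1 spread setting for all genes, no difference between ages and no choice of cells by their genes. They therefore do not show how often the calls in the real counts are wrong. NumPy 2.4.6, pandas 2.3.3, SciPy 1.17.1 and matplotlib 3.10.9 (Python 3.11.15) were used.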

Additional observations from a re-analysis of the deposited data

Results flagged for a closer look

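For 5 genes the log2 ratio of goblet-like cells over the other epithelial cells had opposite signs past 1 at d0 and d21. Each age was 1 library, so the difference between the ages was not tested. OLFM4, the crypt gene, was at 2.89 at d0, 0.61 at d1, 0.70 at d7, -0.90 at d14 and -1.74 at d21. At d0 its UMIs were in 25 of 476 members. The tertile split was made on the genes that chose the members, so it only describes them. From the lowest to the highest tertile of rule level, OLFM4 at d0 was at 4.21, 0.945 and 0.0623 per 10000. In the other epithelial cells at d0 it was at 0.268, above the highest tertile. ASCL2, a stem cell factor, was at 1.11 at d0 and -1.40 at d21. The MHC class II genes CD74 and SLA-DRA went the other way, from -1.10 to 1.38 and from -1.12 to 1.26, and 1 member held 68.6% of the CD74 counts at d21. Non-epithelial markers were found in 85.7% of members at that age, and without the members that carried them the ratio of d21 over d0 in members was -0.53 for CD74 and -0.24 for SLA-DRA. GCG, the proglucagon gene, was at 2.16 at d0, where 1 member held 82.7% of its counts, and had no count in members at d21, so that its value there, -1.49, is set by the 0.1 per 10000 added.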

How the results depend on the processing

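With 1 library per age, 21 members at d21 and single barcodes of up to 33.5% of an age's member counts, levels after d1 were imprecise. Settings on TFF3 and AGR2, on members meeting the enteroendocrine rule and on the member with most UMIs were chosen after seeing the data. Of the levels in members that were followed, 28 moved and 2 did not with every member weighted alike. The numbers were also 28 and 2 at 50 per 10000. They were 24 and 6 without mitochondrially encoded counts, 23 and 7 without members with non-epithelial markers, and 16 and 14 without the member with most UMIs. Each other setting moved 7 or fewer. The share of members at d0 was 2.77% with at least 10 UMIs, 2.41% with at least 50 per 10000, 3.85% among barcodes with 500 genes, 5.50% under 20% mitochondrial counts, 4.36% among the 5000 largest barcodes, 6.18% of epithelial barcodes and 2.56% by TFF3 and AGR2. At d1 it was 4.64%, 4.00% and 4.22% (at least 10 UMIs, 50 per 10000, no non-epithelial markers), 9.68% of the largest and 15.5% of epithelial barcodes. At d7 it was 0.273% (50 per 10000), 0.244% (no non-epithelial markers), 0.700% and 7.33%. At d14 it was 0.136% (no non-epithelial markers), 11.9% of epithelial barcodes and 0.352% by TFF3 and AGR2, and at d21 0.0178%, 1.99% and 0.367%, with 0.240% of the largest barcodes. The order of d0 and d1 above the later ages was lost on the epithelial scale.

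Genes past the fold from d0 to d21 numbered 414 upward with members weighted alike, 527 and 563 without members with non-epithelial markers (3 members left at d21), 95 and 123 with 1 per 10000 added, and 733 and 1026 with no filter on level. From d0 to d1 they numbered 23 downward with members weighted alike, 32 downward at 50 per 10000, and 8 and 15 with 1 added. Ratios from d0 to d21 changed sign for CXCL8 with members weighted alike (-0.023), and at 50 per 10000 for NTS (-0.30), PYY (-6.04) and SCG2 (-0.16). Without members meeting the enteroendocrine rule NTS was -0.41, PYY -0.59 and SCG2 -0.036, and PYY from d0 to d1 was 0.40. With the 3 members left at d21 the sign changed for BAG3 (-2.44), CD74 (-0.53), CENPF (-2.67), CXCL8 (-3.83), DNAJB1 (-1.17), DNAJB4 (-3.18), GNLY (-0.11), HBEGF (-4.16), HSPA8 (-0.45), HSPH1 (-3.97), NTS (-0.45), PYY (-6.17), SCG2 (-0.21), SLA-DQA1 (-0.21), SLA-DRA (-0.24), SOX9 (-1.98), STMN1 (-2.86), TNFSF10 (-2.23), TOP2A (-2.35) and UBE2C (-2.24).

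Without the replicate block, which the library gives, 80 genes were higher and 0 lower than in other epithelial cells, 106 and 180 against enteroendocrine cells, and 165 higher against tuft cells. Against other epithelial cells the counts were 550 and 608 at 50 per 10000, with 643 lower with no filter on low counts. At 50 per 10000 the fit left out d21, so the threshold and the libraries changed together. Against enteroendocrine cells they were 1060 and 991 with no filter and 972 and 1095 without cells with non-epithelial markers, and against tuft cells 1048 higher with no filter. The enteroendocrine fit without cells with non-epithelial markers held d0 and d1 only, so the cells and the libraries changed together. Leaving out 1 library gave 150 to 468 higher and 42 to 476 lower against other epithelial cells, 107 to 351 and 166 to 490 against enteroendocrine cells, and 177 to 425 and 169 to 319 against tuft cells. The sign changed for GCNT1 against enteroendocrine cells (0.029, without cells with non-epithelial markers, in d0 and d1 only). Against tuft cells under 20% mitochondrial counts it changed for ND4 (0.59), ND4L (0.031), ND5 (0.66), COX2 (0.61), COX3 (0.39), ATP6 (0.67) and CYTB (0.66). That tuft cell fit held d1 and d21 only, so the filter and the libraries changed together. Counting each gene under each alternative once, against other epithelial cells a call was lost 156 times and gained 139 times, and neither happened 3176 times. The last number includes genes called in neither fit, so it gives no rate of loss among the calls. The calls of TFF3, AGR2, FCGBP, SPDEF, ATOH1, RETNLB, GALNT5, ST6GALNAC1, GNE, FER1L6, KLK1, RAB26 and RAB27B were lost under none of the alternatives run. The cause of these changes was not tested.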

Other observations

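Goblet-like cells were found among few barcodes with T and NK cell markers. The mucus rule was met by 5 of 559 such barcodes at d0, 7 of 505 at d1, 1 of 3658 at d7, 1 of 6073 at d14 and 5 of 11714 at d21. Among barcodes with stromal markers it was met by 2 of 98, 25 of 3548, 0 of 220, 2 of 3299 and 0 of 1615. Whether these were 2 cells in 1 droplet or carried free RNA was not tested.

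Elafin (PI3), an inhibitor of neutrophil elastase, varied with age in members, with 6.12 per 10000 at d0, 13.6 at d1, 60.9 at d7, 54.6 at d14 and 18.8 at d21. Its level in the other epithelial cells was 0.139, 2.50, 9.31, 33.1 and 13.9. LYZ, the lysozyme gene, was at 0.320, 0.336, 2.46, 4.07 and 0.669 in members and 0.00554, 0.0400, 0.839, 4.12 and 0.997 in the others. PI3 was above the other epithelial cells in members at all 5 ages, and LYZ was above them at d0, d1 and d7 and not at d14 or d21.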
